A study of Mus musculus with 9 samples.

Results

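A named set of 36 cell cycle and replication genes was followed in mouse hearts that overexpress calcineurin and in wild type hearts. The genes were looked up by symbol in the deposited expression tables of 9 hearts, which list 43154 genes each. Of the 36 genes 35 were listed, and Cdt1 was not found under that symbol. They comprise 4 genes of G1 control and S phase entry, 11 S phase genes and 20 genes of G2 and mitosis.

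All mice were C57BL/6, and the labels give each heart a number of its own, so that each was counted as 1 animal. Wild type mice given vehicle gave 4 hearts, of which hearts 1 and 2 were collected on postnatal day 125 and hearts 3 and 4 on day 158. Calcineurin transgenic mice (MHC-CnATg), which carry calcineurin A under the cardiac muscle promoter of the α-myosin heavy chain gene, gave 3 hearts after vehicle (heart 1 on day 125, hearts 2 and 3 on day 158). Transgenic mice given JIB-04, an inhibitor of Jumonji histone demethylases, gave 2 hearts (heart 1 on day 125, heart 2 on day 158). Dosing of 50 mg/kg began at 4 weeks of age and was repeated 3 times per week. Wild type hearts after JIB-04 were not analysed here, so a JIB-04 effect can be read only within the transgenic genotype. No label gives the sex of the mice.

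Levels are given as FPKM, which counts sequenced fragments relative to transcript length and library size. The steps between the lowest values put the depth of each heart at an estimated 14300000 to 21400000 fragments. Every transgenic heart (17700000 or more) was deeper than every wild type heart (17500000 or fewer). Ppp3ca, which encodes a calcineurin A subunit, lay between 22.9 and 24.8 FPKM in the wild type hearts and between 1434 and 1762 in 4 transgenic hearts. In transgenic vehicle heart 3 it was at 199, which is above every wild type heart and far below the other transgenic hearts. That heart also stood apart for the genes described here, and results that rest on it are given with and without it. In whole hearts, fewer cells of a type and less RNA per cell cannot be told apart.

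Cells that prepare to divide make D-type cyclins, which activate CDK4 and CDK6 and so release E2F transcription factors from the retinoblastoma proteins. E2F then drives the genes of DNA replication, such as the MCM helicase, the PCNA clamp and the enzymes of nucleotide synthesis. The genes of G2 and mitosis are held down in resting cells by the DREAM complex through CHR elements, and are switched on late in the cycle through the same elements with the help of NF-Y at CCAAT boxes. Most heart muscle cells of adult mice have left the cycle, and the dividing cells of an adult heart are largely of other types.

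RefSeq promoters (GRCm38.p6) were found for 28 of the 35 genes, and the 250 bases before the start were searched on both strands. The CHR was searched as TTTGAA. For E2F the letters TTCCCGC were searched, and as an alternative form of the same site TTGGCGC. The box bound by NF-Y was searched as CCAAT, and its reverse complement can overlap the start of the latter E2F form. CCAAT was present in 15 of 16 mitosis genes (93.8%), 7 of 10 S phase genes (70.0%) and 0 of 2 G1 genes, against 33.8% of 32851 promoters of the table. The CHR letters were present in 7 of 16 mitosis genes (43.8%), 1 of 10 S phase genes and 0 of 2 G1 genes, against 16.0% of all promoters. The E2F letters were present in 4 of 10 S phase genes (40.0%) and 3 of 16 mitosis genes (18.8%), against 5.62% of all promoters. A member was counted if any of its promoters held the letters, while the shares of all promoters count each promoter, so the units differ. These are matches of letters, with no data on binding here. In the 200 bases before the start shown here, capitals mark the motif letters on either strand. Mki67 (minus strand, chr7:135716380-135716579), a nuclear protein of dividing cells and the usual proliferation marker, holds all 3 kinds of motif. Ccnb2 (minus strand, chr9:70421555-70421754), cyclin B2, shows the CHR letters, which lie further from the start than its 3 CCAAT boxes. Mcm6 (minus strand, chr1:128359706-128359905), a subunit of the replicative helicase, shows 2 E2F motifs with 2 CCAAT boxes. Birc5 (plus strand, chr11:117849037-117849236), the survivin subunit of the chromosomal passenger complex, is the mitosis gene with none of them, and it is shown because it also differed between the groups.
Mki67: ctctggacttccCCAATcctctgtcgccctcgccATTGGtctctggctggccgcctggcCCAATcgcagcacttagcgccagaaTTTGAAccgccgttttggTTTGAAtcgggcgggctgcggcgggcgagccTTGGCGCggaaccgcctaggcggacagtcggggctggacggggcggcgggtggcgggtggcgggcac
Ccnb2: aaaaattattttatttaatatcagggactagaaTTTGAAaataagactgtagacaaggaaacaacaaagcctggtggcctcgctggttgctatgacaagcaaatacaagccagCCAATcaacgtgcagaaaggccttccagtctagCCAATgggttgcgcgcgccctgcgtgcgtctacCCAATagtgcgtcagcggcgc
Mcm6: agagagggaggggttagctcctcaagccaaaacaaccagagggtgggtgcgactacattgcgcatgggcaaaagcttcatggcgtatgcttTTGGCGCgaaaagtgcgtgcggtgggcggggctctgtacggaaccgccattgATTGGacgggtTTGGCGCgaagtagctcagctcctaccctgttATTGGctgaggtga
Birc5: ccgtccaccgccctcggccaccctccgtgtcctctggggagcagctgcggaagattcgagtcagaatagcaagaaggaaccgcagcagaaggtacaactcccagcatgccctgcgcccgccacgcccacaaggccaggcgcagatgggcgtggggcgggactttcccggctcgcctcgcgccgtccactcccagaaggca

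Most of the genes were at low level. The median over genes of the mean over all hearts was 11.3 FPKM for the G1 genes, 2.61 for the S phase genes and 0.61 for the mitosis genes. The cyclin genes Ccnd2 and Ccnd1, the clamp gene Pcna and the centromeric histone gene Cenpa were the exceptions, with means of 38.2, 21.8, 26.0 and 40.3 FPKM. A gene was tested if 2 or more hearts reached 1 FPKM, and 20 of the 35 passed (3 G1, 10 S phase and 7 mitosis genes). Of these 3 passed only through transgenic hearts (Ccne1, Ccna2 and Birc5), since no wild type heart reached 1 FPKM, and 0 only through wild type hearts, so the filter favours members that are high in the transgenic hearts. Cdc6, Ccnb1, Aurka, Aurkb, Plk1, Bub1, Cenpe, Kif11, Kif20a and Tpx2 stayed below 1 FPKM in every heart. E2f1, Mki67, Ccnb2, Bub1b and Cdca8 reached it in a single heart.

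**Figure D1:**
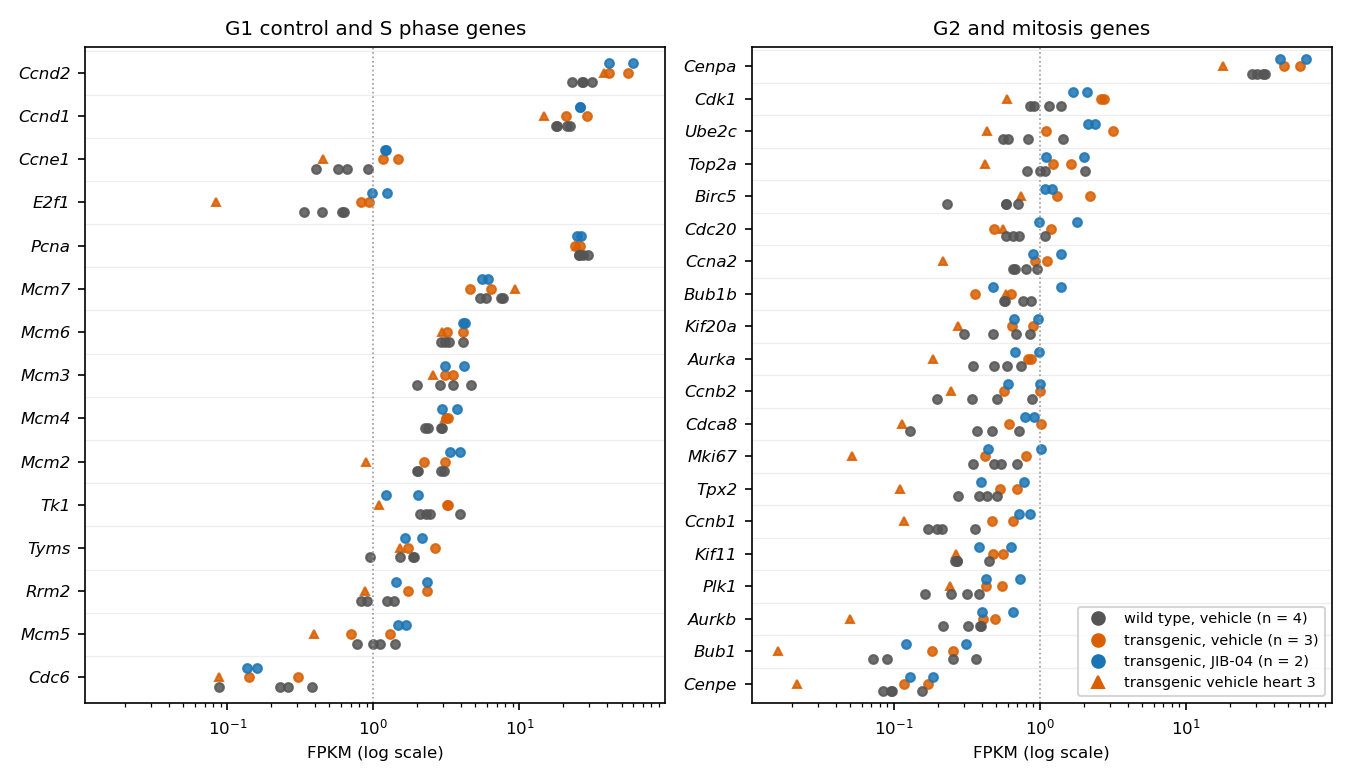
FPKM of the 35 listed genes in each of the 9 hearts on a logarithmic axis, with a point per heart coloured by group and a dotted line at 1 FPKM. Transgenic vehicle heart 3 (triangle) lies at the left end of most mitosis genes, while most S phase genes spread less.

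Among the genes of G1 control, Ccnd2 (cyclin D2, chromosome 6, positions 127125779 to 127151048 in GRCm38) was higher in the transgenic hearts. It was at 40.8, 55.1 and 38.2 FPKM in transgenic vehicle hearts 1, 2 and 3 and at 40.9 and 60.1 in JIB-04 hearts 1 and 2. Wild type hearts 1 to 4 were at 23.0, 27.2, 27.0 and 31.4. Every transgenic heart thus lay above every wild type heart, including the one with the low Ppp3ca level. An antisense gene that shares exon positions with Ccnd2, 9330179D12Rik, lay at 0.37 to 3.72 FPKM. The vehicle groups averaged 44.7 ± 9.08 (SD, n = 3) against 27.1 ± 3.42 (SD, n = 4). On the log2(FPKM + 1) scale the difference was 0.64 ± 0.14 (SE; 95% interval 0.32 to 0.97; limma, adjusted p = 0.0095). JIB-04 hearts exceeded wild type by 0.85 ± 0.16 (SE; limma, adjusted p = 0.0052), a call that was lost without JIB-04 heart 2 (0.68; limma, adjusted p = 0.083) and with the hearts of day 158 alone (1.02; limma, adjusted p = 0.092). The call against wild type vehicle was lost without transgenic vehicle heart 1 (0.58; limma, adjusted p = 0.059) and with the hearts of day 158 alone (0.64; limma, adjusted p = 0.12).

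Ccnd1 (cyclin D1, chromosome 7, positions 144929931 to 144939869) was at 20.9, 29.1 and 14.6 FPKM in the transgenic vehicle hearts, 26.0 and 26.1 in the JIB-04 hearts, and 18.1, 21.0, 17.7 and 22.3 in the wild type hearts. The vehicle groups overlapped, with the lowest and the highest heart both transgenic (0.07 ± 0.21, SE). Ccne1 (cyclin E1, which starts S phase with CDK2; chromosome 7, positions 38097984 to 38107534) was at 1.46, 1.16 and 0.45 in the transgenic vehicle hearts, 1.21 and 1.21 in the JIB-04 hearts, and 0.57, 0.41, 0.66 and 0.92 in the wild type hearts. Transgenic vehicle heart 3 lay within the wild type range, and the other transgenic hearts lay above it (0.28 ± 0.20, SE; not called). E2f1, which did not pass the filter, ranged from 0.08 in transgenic vehicle heart 3 to 1.23 in JIB-04 heart 2. The 4 G1 genes summed to 64.0, 86.3 and 53.4 FPKM in the transgenic vehicle hearts, 69.1 and 88.6 in the JIB-04 hearts and 42.3 to 55.0 in wild type, and this sum is mostly the 2 D-type cyclins.

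Of the 10 S phase genes tested 0 were called between the vehicle groups (0 at an unadjusted p under 0.05; limma), against 36% of all genes tested, with 5 differences above and 5 below 0. Pcna (chromosome 2, positions 132249162 to 132253314), the sliding clamp of DNA polymerases and a factor of DNA repair, was at 23.9, 26.1 and 24.8 FPKM in the transgenic vehicle hearts. It was at 26.4 and 24.6 in the JIB-04 hearts and at 29.4, 25.8, 25.6 and 27.1 in the wild type hearts. Its highest value was 1.23 times its lowest, the narrowest range of the 35 genes, and the difference of the vehicle groups was -0.10 (95% interval -0.28 to 0.07).

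The MCM genes encode the ring-shaped helicase that is loaded at replication origins. Mcm7 (chromosome 5, positions 138164583 to 138172422) was at 4.56, 6.35 and 9.35 FPKM in the transgenic vehicle hearts, 6.05 and 5.52 in the JIB-04 hearts, and 5.33, 5.92, 7.76 and 7.46 in the wild type hearts. It is the only member with its highest level in transgenic vehicle heart 3. Its exons share positions with Cops6, which lay at 56.8 to 88.1 FPKM, and the libraries do not mark strand. Mcm6 was at 3.21, 4.13 and 2.94 in the transgenic vehicle hearts, 4.21 and 4.09 in the JIB-04 hearts and 3.28, 3.07, 2.91 and 4.11 in the wild type hearts, so that the vehicle groups spanned nearly the same range. Together the 6 MCM genes summed to 16.9, 21.7 and 19.2 FPKM in the transgenic vehicle hearts, 23.8 and 20.5 in the JIB-04 hearts and 17.5 to 21.0 in wild type. Their differences between the vehicle groups ran from -0.23 (Mcm2) to 0.21 (Mcm4), and the interval for Mcm4 was -0.04 to 0.47.

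Of the enzymes of deoxynucleotide supply, Rrm2 (ribonucleotide reductase subunit) differed between the vehicle groups by 0.32 ± 0.22 (SE), Tyms (thymidylate synthase) by 0.20 ± 0.19 (SE) and Tk1 (thymidine kinase) by -0.09 ± 0.28 (SE). None of these was called, and the intervals of all 3 included 0. Cdc6, which loads the helicase with Cdt1, lay between 0.09 and 0.38 FPKM in all hearts, a level that stands for an estimated 5.98 to 30.3 fragments. The 11 S phase genes summed to 47.6, 56.2 and 47.6 FPKM in the transgenic vehicle hearts, 55.1 and 51.2 in the JIB-04 hearts and 53.0, 52.5, 49.1 and 53.1 in the wild type hearts. Pcna is the largest term of each sum, and the groups overlapped.

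The genes of G2 and mitosis had a wider range over the hearts than the S phase genes. The highest heart exceeded the lowest 5.90-fold at the median of the 20 genes, against 2.81-fold for the S phase genes, and 22.6-fold for Bub1, a kinase of the spindle checkpoint. This spread rests largely on transgenic vehicle heart 3, since without it the medians were 3.19-fold and 2.35-fold, and the value for Bub1 was 5.06-fold. The mitosis genes were also at a lower level (median 0.61 against 2.61 FPKM), where few fragments make such ratios less certain. The part of the low level in the wider range was not tested. Birc5 (chromosome 11, positions 117849251 to 117855743) was at 1.31, 2.2 and 0.75 FPKM in the transgenic vehicle hearts, 1.09 and 1.20 in the JIB-04 hearts, and 0.71, 0.59, 0.59 and 0.23 in the wild type hearts. It is the single mitosis gene with every transgenic heart above every wild type heart, by a small margin at transgenic vehicle heart 3. These levels stand for an estimated 13.5 to 33.8 fragments in the wild type hearts and 45.6 to 152.6 in the transgenic hearts. The transgenic hearts were also sequenced deeper, so these fragment numbers overstate the gap in level between the genotypes. The difference of the vehicle groups was 0.64 ± 0.22 (SE; 95% interval 0.14 to 1.14; limma, adjusted p = 0.049). Birc5 entered the test only through the group where it is high, and with no filter it was not called (limma, adjusted p = 0.11). Leaving out any heart other than transgenic vehicle heart 3 ended this call (limma, adjusted p = 0.069 to 0.14), as did 6 of the other settings tried (adjusted p = 0.053 to 0.22).

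Cdk1 (chromosome 10, positions 69336635 to 69352938), the kinase that drives entry into mitosis, was at 2.74, 2.64 and 0.59 FPKM in the transgenic vehicle hearts. It was at 1.67 and 2.08 in the JIB-04 hearts and at 0.86, 0.92, 1.39 and 1.16 in the wild type hearts. Every transgenic heart except vehicle heart 3 lay above the wild type range, and vehicle heart 3 lay below it. Over all hearts the difference of the vehicle groups was 0.43 ± 0.30 (SE; not called), and without vehicle heart 3 it was 0.83 (limma, adjusted p = 0.0014). Heart 3 was the lowest heart for Cdk1, so the value without it rests on a choice made from these same data. Its p-value is thus descriptive only.

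Cenpa (chromosome 5, positions 30666777 to 30674827), the histone variant that marks centromeres, showed the same split. It was at 47.1, 60.2 and 18.0 FPKM in the transgenic vehicle hearts, 65.9 and 44.1 in the JIB-04 hearts, and 34.9, 30.5, 28.4 and 33.5 in the wild type hearts. The difference of the vehicle groups was 0.28 ± 0.35 (SE; not called), and 0.73 without vehicle heart 3 (limma, adjusted p = 0.013). Heart 3 was the lowest heart for Cenpa too, so the latter p-value is likewise descriptive only. Ube2c (chromosome 2, positions 164769898 to 164778822), the ubiquitin-conjugating enzyme of the anaphase-promoting complex, was at 1.11, 3.16 and 0.43 in the transgenic vehicle hearts, 2.14 and 2.38 in the JIB-04 hearts, and 0.82, 1.45, 0.56 and 0.60 in the wild type hearts. The vehicle groups overlapped, and both JIB-04 hearts lay above the wild type range.

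Mki67, described here as the usual proliferation marker although it did not pass the filter, was at 0.42, 0.80 and 0.05 FPKM in the transgenic vehicle hearts, 0.44 and 1.02 in the JIB-04 hearts, and 0.70, 0.54, 0.48 and 0.35 in the wild type hearts. The lowest and the highest heart were both transgenic. In estimated fragments it stood at 9.58 in transgenic vehicle heart 3 and between 60.6 and 195.6 in the others, while the estimated depth of that heart was within the range of the others. Other mitosis genes rest on few fragments, down to an estimated 1.01 for Bub1 in the same heart.

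**Figure D2:**
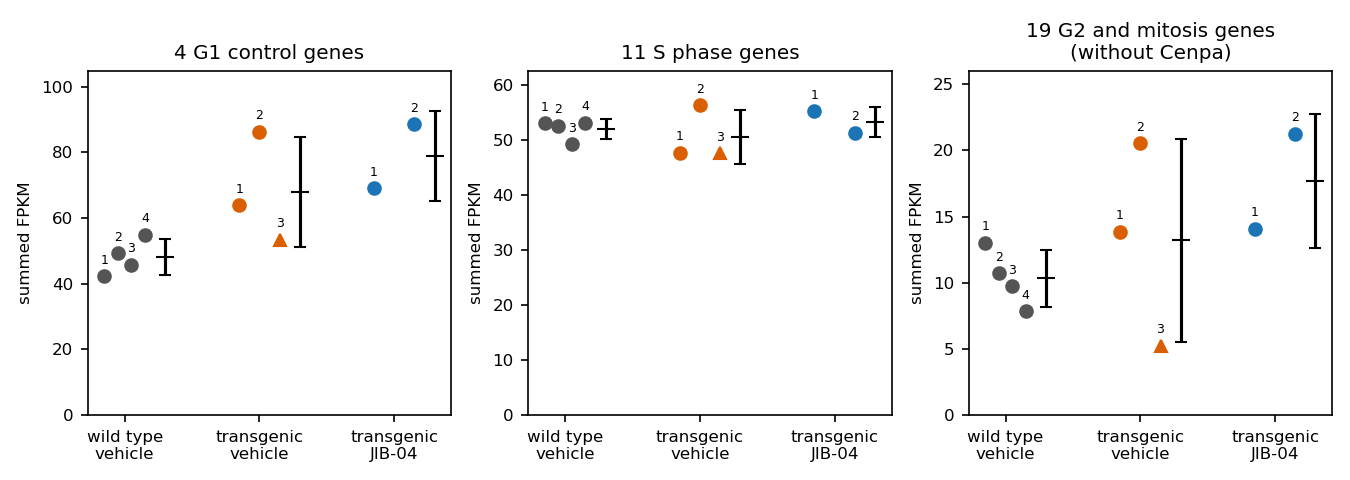
Summed FPKM of the 4 G1 genes, the 11 S phase genes and 19 mitosis genes (Cenpa left out because it outweighs the rest) in each heart, numbered by replicate, with the group mean and SD as bars. The mitosis sum is 13.8, 20.5 and 5.25 in the transgenic vehicle hearts (heart 3 a triangle) and 7.85 to 13.0 in wild type, while the S phase sums of all groups lie between 47.6 and 56.2.

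Across the set, 2 of 20 tested genes were higher in transgenic vehicle hearts than in wild type (Ccnd2 and Birc5) and 0 were lower, with no further gene at an unadjusted p under 0.05 (limma). With no filter 1 of 35 was called, Ccnd2. Of all 13487 genes tested 36% were called in this comparison, 20.3% higher and 15.7% lower. The median difference of the 20 members was 0.05, as it was over all genes tested (0.05). By role the median was 0.28 for the 3 G1 genes, -0.03 for the 10 S phase genes and 0.28 for the 7 mitosis genes, and 0.06 for all 20 mitosis genes when no filter was applied. Counting levels alone, 3 of the 35 genes had every transgenic vehicle heart above every wild type heart (Ccnd2, Mcm4 and Birc5). The same held for 21.6% of the 16002 genes with a mean of at least 0.2 FPKM, a level that 32 members reach.

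**Figure D3:**
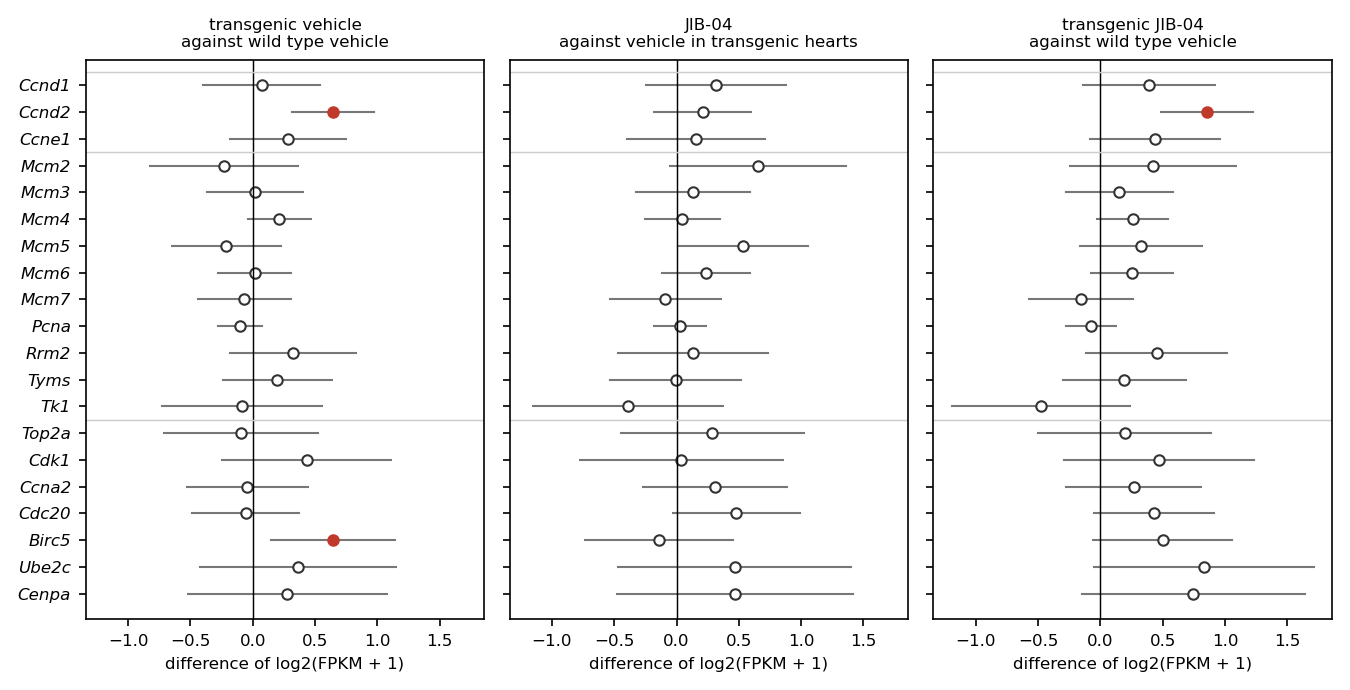
Differences on the log2(FPKM + 1) scale with 95% intervals for the 20 tested genes in each of the 3 comparisons, ordered as G1, S phase and mitosis genes. Filled red points (Ccnd2 and Birc5 on the left, Ccnd2 on the right) passed an adjusted p of 0.05, and the intervals of most other genes include 0.

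Transgenic vehicle heart 3 was the lowest of the 9 hearts for 20 of the 35 genes, namely 14 of 20 mitosis genes, 4 of 11 S phase genes and 2 of 4 G1 genes. Over the 16002 genes it was the lowest heart for 18.1% and the highest for 18.6%, each the largest share of any heart. Without it, 5 members were called higher than in wild type (Ccnd2, Ccne1, Cdk1, Birc5 and Cenpa) and 0 lower (limma), but Ccne1 and Birc5 are among the 3 that the filter kept only through transgenic hearts. In the same fit 5008 of all 13397 genes tested were called, 2816 higher and 2192 lower. Heart 3 was singled out partly by the levels of these same members, so their calls without it are descriptive only. Hearts 1 and 2 of the transgenic vehicle group both lay above all wild type hearts for 14 of the 35 genes, 9 of them mitosis genes, and this held for 27.9% of the 16002 genes. Heart 3 is also the one with the low Ppp3ca level. Its fibroblast markers stood apart in both directions, with Dcn the highest of the 9 hearts (567 FPKM) and Col1a1 (9.67) and Lum (21.1) the lowest, and its Myh6, the α-myosin heavy chain gene of muscle cells, was at 705 against 1755 or more in every other heart. The part of any of these in the levels of the cell cycle genes was not tested.

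No member was called between JIB-04 and vehicle within the transgenic genotype. The count was 0 of 20 (1 at an unadjusted p under 0.05; limma), and of all genes tested 0.00741%, which is 1 gene. The member below the unadjusted threshold was Mcm5, a helicase subunit, at 0.70, 1.30 and 0.39 FPKM in the transgenic vehicle hearts and 1.68 and 1.47 in the JIB-04 hearts. Both JIB-04 hearts were above the vehicle hearts, by 0.53 on the log2 scale (95% interval 0.01 to 1.05; limma, adjusted p = 0.99). The intervals of other members included 0, such as -0.18 to 0.60 for Ccnd2, -0.77 to 0.85 for Cdk1 and -0.18 to 0.24 for Pcna. With 2 JIB-04 hearts, changes within these intervals were not excluded. The median difference over the 20 members was 0.18, against -0.01 over all genes tested, and transgenic vehicle heart 3 is part of that comparison.

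E2f1, Mcm2, Mcm5 and Ccnb1 were higher in both JIB-04 hearts than in all transgenic vehicle hearts, which is 4 of 35 members against 5.9% of the 16002 genes. Ccnb1, the cyclin B1 partner of CDK1, was at 0.47, 0.66 and 0.12 FPKM in the transgenic vehicle hearts, 0.72 and 0.85 in the JIB-04 hearts, and 0.36, 0.17, 0.21 and 0.20 in the wild type hearts. It was chosen for printing after its values were seen, and it did not pass the filter. JIB-04 heart 2 was the highest of all hearts for 15 members, 12 of them mitosis genes, while it was the highest for 9.62% of the 16002 genes. JIB-04 heart 1 was the highest for 5 members, and the mitosis sum without Cenpa was 14.1 in heart 1 and 21.3 in heart 2, so the 2 hearts of the group differed.

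Between JIB-04 hearts and wild type hearts 1 of 20 members was called, Ccnd2, against 32.3% of all genes tested (17.4% higher and 14.8% lower). The levels separated for more members than this. Both JIB-04 hearts lay above all wild type hearts for 15 of 35 members, including all 4 G1 genes, Mcm2, Mcm5, Rrm2 and 8 mitosis genes, against 26.7% of the 16002 genes. Tk1 alone lay below, against 20.7%. The median difference was 0.36 over the 20 members and 0.04 over all genes tested. Both comparisons with wild type share the wild type hearts, and neither is a repeat of the other. The endothelial markers summed to 110 and 114 FPKM and the fibroblast markers to 561 and 573 in the JIB-04 hearts, outside the wild type ranges given at the end. Pericyte and smooth muscle markers summed to 138 and 136 FPKM against 211 to 251 in wild type, and erythroid markers to 7288 and 4959 against 1947 to 4808. All 3 erythroid genes tested were above wild type at an unadjusted p under 0.05 and 1 was called (Alas2, 0.88 ± 0.28, SE; limma, adjusted p = 0.045; lost in 11 of 22 other settings). The part of these cell types in the levels was not tested. Without transgenic vehicle heart 3, which enters only through the shared estimate of the spread, Cdk1 and Cenpa were also called. In that fit 5322 of all 13397 genes tested were called, 2865 higher and 2457 lower. Heart 3 was the lowest heart for both members, so the calls of Cdk1 and Cenpa without it are descriptive only.

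Between day 158 and day 125, 0 of the 20 members were called (2 at an unadjusted p under 0.05, Mcm3 at -0.35 and Mcm7 at 0.35; limma), against 0.378% of all genes. The difference between the transgenic and wild type vehicle groups was also compared between day 158 and day 125, with 1 transgenic vehicle heart on day 125. Again 0 members were called (0 at an unadjusted p under 0.05; limma), against 0.00741% of all genes.

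Other genes of the cycle were taken from lists by role and tested in the same fit. Among 17 tested genes of CDK inhibitors, pocket proteins and growth arrest factors, 6 were higher and 3 lower in transgenic vehicle hearts, which is 52.9% against 36% of all genes tested. Gadd45g, a stress response gene of the growth arrest and DNA damage family, was at 47.0, 58.2 and 52.5 FPKM against 21.9, 13.8, 8.51 and 19.6 in wild type (1.75 ± 0.28, SE; limma, adjusted p = 0.0022). Its relative Gadd45a moved the other way, at 7.61, 7.30 and 7.29 against 18.4, 22.9, 16.3 and 21.2 (-1.27 ± 0.11, SE; limma, adjusted p = 0.00012). Neither gene's vehicle groups overlapped.

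Btg2, an antiproliferative gene that is also an immediate early gene, was higher by 1.38 ± 0.15 (SE), and Cdkn2d, the p19 inhibitor of CDK4 and CDK6, by 0.53 ± 0.08 (SE). Cdkn1a and Cdkn1c were picked after their values were seen, as the p21 and p57 inhibitors of cyclin-dependent kinases. Cdkn1a was at 20.7, 19.2 and 48.6 FPKM against 12.2, 9.11, 6.02 and 5.45 in wild type (1.67 ± 0.38, SE; limma, adjusted p = 0.011), and its highest heart was transgenic vehicle heart 3. Cdkn1c was lower, at 6.37, 3.57 and 7.03 against 11.7, 14.4, 10.3 and 10.9 (-0.92 ± 0.18, SE; limma, adjusted p = 0.0053).

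Among 24 tested genes of other cyclins, kinases, E2F, DREAM and MYB factors, 5 were higher and 2 lower, which is 29.2% against 36% of all genes. Myc, a growth-promoting transcription factor, was at 4.74, 8.95 and 7.51 FPKM against 1.81, 1.02, 2.34 and 0.83 (1.65 ± 0.23, SE; limma, adjusted p = 0.0013). Mybl1, a MYB family factor, was higher by 0.89 ± 0.12 (SE). It passed the filter only through transgenic hearts (wild type hearts at 0.20 to 0.35 FPKM), and its call was kept with no filter. Cdk2, the partner of cyclins E and A, was lower by a log2 difference of -0.54 ± 0.12 (SE), a call that was lost without transgenic vehicle heart 1 (-0.50; limma, adjusted p = 0.059). Lin37, a DREAM subunit, was higher by 0.45 ± 0.10 (SE), but its exons share positions with the opposite-strand gene Hspb6, which lay at 393 to 826 FPKM. Of the late-cycle activators in this list, Foxm1 lay between 0.12 and 0.64 and Mybl2 between 0.11 and 0.77 FPKM in all hearts, in the same low range as the mitosis genes.

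Of 35 tested further replication genes 5 were higher and 8 lower, a share of 37.1% that is near the 36% of all genes. Among the higher genes, Gins3 passed the filter only through transgenic hearts. Gmnn, the geminin inhibitor of Cdt1, was at 31.2, 19.3 and 19.6 FPKM against 55.2, 53.5, 41.7 and 46.0 (-0.98 ± 0.10, SE; limma, adjusted p = 0.00025). Dut, which removes dUTP, was at 12.4, 11.2 and 10.1 against 21.3, 24.0, 22.3 and 23.8 (-0.95 ± 0.09, SE; limma, adjusted p = 0.00015). Both had all transgenic hearts below all wild type hearts. Rpa1, of the single-strand binding complex, was lower (-0.44 ± 0.07, SE) and the primase subunit Prim2 was higher (0.71 ± 0.11, SE).

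Of 17 tested further mitosis genes 3 were higher and 3 lower, a share of 35.3% that is near the 36% of all genes. Cenpf, a kinetochore protein of G2 and mitosis, was at 0.22, 0.33 and 0.11 FPKM against 7.61, 3.07, 5.76 and 4.99 in wild type, with 0.29 and 0.28 in the JIB-04 hearts (-2.34 ± 0.23, SE; limma, adjusted p = 0.00024). The highest transgenic heart lay far below the lowest wild type heart, on a gene whose wild type level is above 1 FPKM, unlike most members of the mitosis group. Cenpf passed the filter only through wild type hearts, and its call was kept with no filter. Smc4, a condensin subunit, was higher by 0.58 ± 0.09 (SE), while the condensin subunit Ncapd2 (-0.46 ± 0.14, SE) and the kinetochore gene Spc24 (-0.48 ± 0.11, SE) were lower. The call of Ncapd2 was lost without transgenic vehicle heart 1 or 3 or wild type heart 1 or 3 (limma, adjusted p = 0.065 to 0.19). Of the 35 calls in the 4 lists 11 were lost in 6 or more of 22 other settings, and 24 calls (12 higher and 12 lower) in 5 or fewer. JIB-04 against vehicle in transgenic hearts gave 0 calls in all 4 lists (limma; 2 of the inhibitors and 1 replication gene at an unadjusted p under 0.05).

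**Figure D4:**
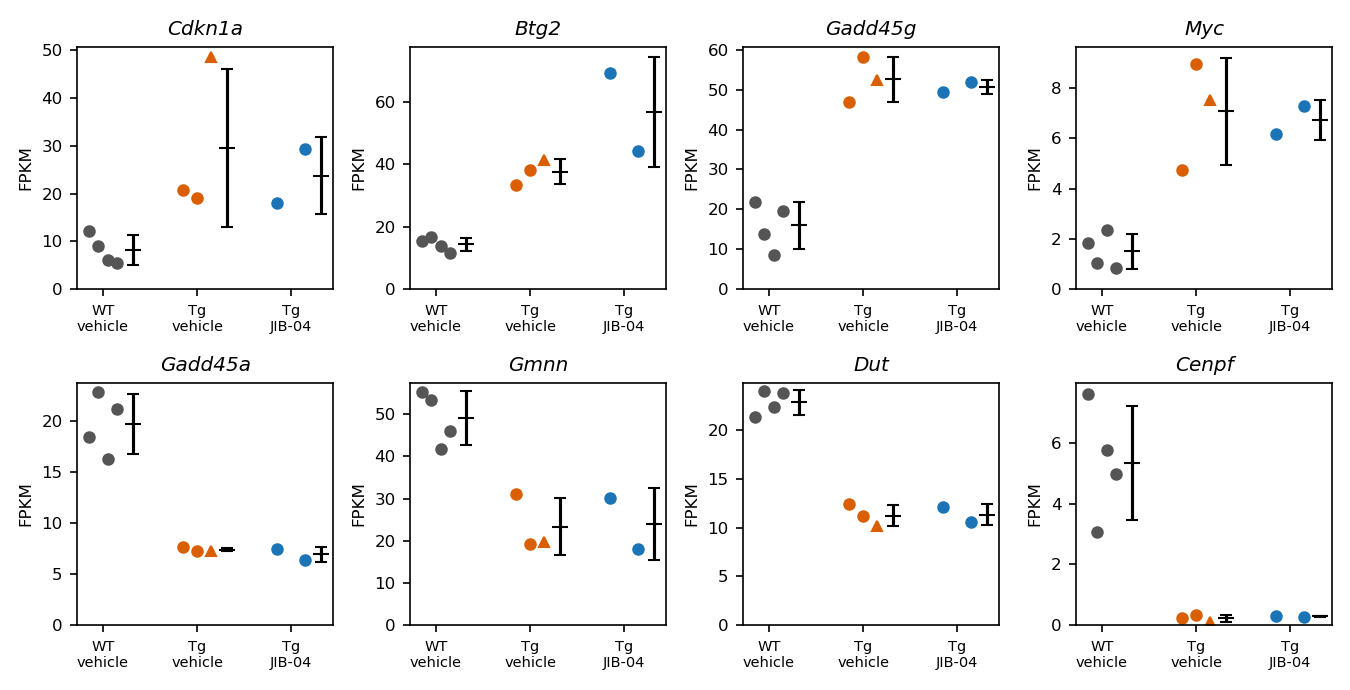
FPKM of 8 genes of cell cycle control outside the set in each heart (point per heart, transgenic vehicle heart 3 as a triangle, group mean and SD as bars). Cdkn1a, Btg2, Gadd45g and Myc lie higher and Gadd45a, Gmnn, Dut and Cenpf lower in all transgenic hearts than in all wild type hearts.

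Markers of the cell types of the heart also moved with the genotype, in a comparison that called 36% of all genes tested. Endothelial markers were called lower in 5 of 6 genes, against 15.7% of all genes, and 0 of the 6 differences lay above 0. Their sum was 105 to 135 FPKM in transgenic vehicle hearts and 184 to 195 in wild type. Fibroblast markers were called higher in 4 of 6 genes, against 20.3% of all genes, and all 6 differences lay above 0. Their sums were 475, 511 and 643 against 240 to 303. The sum of heart 3 is mostly Dcn (567), while its Col1a1 (9.67) and Lum (21.1) were below those of the wild type hearts (10.9 to 15.8 and 35.5 to 39.9) and its Postn (22.1) was the lowest of the transgenic hearts. Macrophage markers were called in 0 of 6 genes (1 at an unadjusted p under 0.05; limma), with sums of 153 to 188 against 130 to 177. The lymphocyte markers summed to 0.81 to 1.99 against 0.69 to 2.57 FPKM, and erythroid markers to 3261 to 6070 against 1947 to 4808. Only 1 of 5 lymphocyte genes and 3 of 5 erythroid genes passed the filter, and 0 were called (limma; 0 at an unadjusted p under 0.05). Muscle cell markers were 1 higher and 3 lower of 6, and pericyte and smooth muscle markers 1 higher and 3 lower of 5. The calls of Myh6 and of the fibroblast marker Pdgfra were lost in 14 and 9 of 22 other settings. Transgenic vehicle heart 3 was the lowest of the 9 hearts for 5 of these 39 markers, Myh6, Col1a1, Lum and the B cell genes Cd79a and Ms4a1 (the last level with JIB-04 heart 1). The part of cell composition in the levels of the cell cycle genes was not tested.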

How the data were processed

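Poly(A) RNA of 9 hearts was sequenced from libraries that do not keep strand, per the labels' protocols. The submitters' processing notes name Cufflinks 2.2.1, STAR 2.7.1a, GATK 4.1.2 and Picard, without their roles, and the GRCm38 build. The deposited values are log2 FPKM, per the file headers. No source states which constant was added before taking logarithms, and 1 was used because all 9 files have a minimum of exactly 0. Days are those of the labels, although the series text describes dosing of the transgenic mice to day 158. Read totals are not in the files, so depth was estimated from the steps of low values. Fragment numbers are FPKM times the longest GENCODE transcript times that depth.

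The 13487 genes that reached 1 FPKM in 2 or more hearts entered a limma fit (version 3.58.1, R 4.3.3) of log2(FPKM + 1), with a mean per group and a day term over all 9 hearts (5 residual degrees of freedom), an intensity trend and Benjamini-Hochberg adjustment over all genes tested. Called means an adjusted p under 0.05, two-sided. The fit was tested on simulated data. Fold changes of low genes are understated by the constant. Alternatives changed the constant, filter, scaling, day term, trend and hearts used.

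The members and lists were chosen with earlier results of these data known. Values per heart are given for called members and the 3 highest of each role, and beyond this rule for Mcm5, Mki67, Ccnb1, Cdkn1a and Cdkn1c. From each other list the 4 called genes with the lowest adjusted p are named, with values per heart or with the difference alone. Loci count from 0 in the files and are printed from 1. Of the 35 genes 11 share exon positions with another gene (Ccnd1, Ccnd2, Mcm7, Tk1, Top2a, Ccna2, Cdc20, Plk1, Ube2c, Kif20a and Cdca8), whose fragments may be split between the genes.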

Additional observations from a re-analysis of the deposited data

Results flagged for a closer look

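Each of the 35 listed genes was checked for a wild type heart that stood far from the other 3 (Dixon's criterion for groups of 4). Kif11, the motor that separates the spindle poles, was flagged, with a gap of 0.949 of the group's range. Wild type heart 1 was at 0.45 FPKM and the others between 0.26 and 0.27, an estimated 30.9 fragments against 21.1 to 22.6. Chance flags about 1 in 20 groups, so 1 of 35 is no more than chance gives.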

How the results depend on the processing

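Of 1690 values of single members under an alternative, 1662 kept their direction or stayed uncalled, 18 lost and 10 gained a call, and 0 called values reversed, while 120 uncalled values changed sign. For transgenic vehicle against wild type vehicle, 2 members were called, and 1 with no filter, median of ratios scaling, quantile normalization, or only the hearts of the 2 groups compared (Ccnd2 each time), and 0 with the day 158 hearts only. Leaving out a heart gave 0 (without transgenic vehicle heart 1) to 5 (without heart 3), and 1 for each of the other hearts. For JIB-04 hearts against wild type, 1 was called, 2 with a filter on the mean, 5 with only the 2 groups compared (Ccnd1, Ccnd2, Cdk1, Cenpa and Ube2c), and 0 with the day 158 hearts only. Leaving out a heart gave 0 (without JIB-04 heart 2) to 3 (without transgenic vehicle heart 3), and 2 without transgenic vehicle heart 2. JIB-04 against vehicle, the day comparison and the difference between days stayed at 0 members under every setting run, those added after seeing the data included (a block beside the day term, and leaving out hearts for the difference between days). The cause of these changes was not tested. Where hearts were left out, their smaller number and the choice of heart cannot be told apart.

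Same-numbered hearts of different groups had correlations of -0.186 to 0.432 in their deviations from the group means, and other pairs -0.432 to 0.358. The deviations of the 2 JIB-04 hearts mirror each other and day was not removed. This check therefore cannot decide whether the numbers pair the hearts. With the replicate block in place of the day term, transgenic vehicle against wild type gave 1 called member (Ccnd2; Birc5 at 0.53, limma, adjusted p = 0.085), and the other comparisons kept their counts.

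Over all genes, transgenic vehicle against wild type gave 4862 calls (2739 higher, 2123 lower) and 1217 with day 158 hearts only. The split was 4504 higher and 1006 lower with scaling to equal totals, which moved the median of all genes from 0.05 to 0.23, and 2233 higher and 2540 lower with quantile normalization. JIB-04 hearts against wild type gave 4354 calls (2353 higher, 2001 lower), 651 with day 158 hearts only, 1720 to 2186 without a JIB-04 heart, and 2925 higher and 1066 lower at equal totals. JIB-04 against vehicle gave 1 call, with 0 to 6 under the alternatives. The day comparison gave 51, with 3 to 287. Of 35 calls in the 4 lists outside the set, 10 were kept in all 22 settings, and 11 were lost in 6 or more (Bub3 18, Ccnh 17, Orc5 15, Spc25 14, Lin54 13, Gins3 and Pola2 12, Gadd45b 9, Ncapd2 7, E2f3 and Lig1 6). The others were lost in 1 to 3.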
